A study of Rattus norvegicus with 64 samples.

Results

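The CXC chemokines are small secreted proteins with a shared arrangement of cysteines that steer the movement of leukocytes and other cells along concentration gradients. The list held 10 rat genes, Cxcl1, Cxcl2, Cxcl3, Cxcl6, Cxcl9, Cxcl10, Cxcl11, Cxcl12, Cxcl13 and Cxcl14. Members were chosen by symbol, as gene probes whose RefSeq transcript is assigned to one of these names, and 9 of the 10 genes were found on 10 of the 30367 gene probes, out of 15715 named genes in all. Cxcl3 had no probe named in this way and carries no values here. Cxcl12 had 2 probes.

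The samples were reconstructed urinary bladder walls of male Wistar rats. Each rat lost part of the bladder by hemicystectomy and had it augmented with a graft of about 1 cm2 of bladder acellular matrix (BAM), a bladder wall stripped of its cells. The graft was either BAM only or BAM seeded with cultured adipose-derived stromal cells (ASCs, called ADSCs in the labels) of the third passage from syngeneic male rats aged 10 weeks, and bladders were harvested at 7, 30, 90 or 180 days, which gave 8 groups. The labels count 10 rats per group, of which 8 per group were hybridized to 1-colour rat expression arrays, 64 arrays in all. Both grafts shared the surgery and the matrix, no sample of normal or unoperated bladder was analysed here, and the age of the operated rats was not given in the sources used here. The wall holds ingrowing host tissue of many cell types, and in such bulk tissue fewer cells of a type and less RNA per cell cannot be told apart.

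CXC chemokines fall into groups by receptor. Cxcl1, Cxcl2 and Cxcl6 carry the ELR motif, signal through Cxcr2 and draw neutrophils into injured tissue, and their genes are classical targets of IL-1, TNF and NF-kB signalling. Cxcl9, Cxcl10 and Cxcl11 are induced by interferons and recruit activated T and NK cells through Cxcr3. Cxcl13 attracts B cells through Cxcr5, Cxcl12 retains and guides stem, immune and endothelial cells through Cxcr4 and is scavenged by Ackr3, and Cxcl14 is a homeostatic chemokine of epithelia and stroma.

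Expression is given as the log2 level, the log2 processed signal of a probe minus the 75th percentile of gene spots on its array, so a level of 0 equals that percentile and a difference of 1 is a doubling. A level was compared only with levels of the same probe. A gene was called differentially expressed when its Benjamini-Hochberg adjusted p from limma, over all gene probes, was below 0.01 and its fold change was over 1.5. The groups each lay on a slide of their own, so slide and group cannot be told apart, and the scan date of the slides changed between days 30 and 90. On the 32 arrays of days 7 and 30, 73.3% to 95.6% of gene spots were well above background, against 35.5% to 64.6% on the 32 later arrays. The grafts also differed in background on day 90, where the median background of an array ran from 321 to 366 with BAM only and from 99 to 120 with ASCs, so the floor of dim probes was higher with BAM only. Ppbp, a probe not well above background on any array of that day, differed by -0.90 between grafts, with all 8 seeded arrays below every array with BAM only. Differences between grafts on day 90 for probes near background are therefore given without a fold. Cxcl12 and Cxcl14 were well above background on all 64 arrays, Cxcl13 on 62, Cxcl10 on 59, Cxcl9 on 56, Cxcl1 on 50, Cxcl2 on 47, Cxcl6 on 34 and Cxcl11 on 30. The tissue had the markers expected of a bladder wall, since all 6 smooth muscle genes listed and at least 5 of 6 urothelial genes named were well above background on every array of every group.

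The first question was whether seeding with ASCs changed the chemokines at each day. On day 7, 1 of the 9 CXC chemokines was called, Cxcl14, whose level was higher in the seeded bladders, while 7.73% of all probes were called and 2.11% as higher. At 30, 90 and 180 days 0 of 9 passed limma's threshold, where 1.67%, 12.5% and 2.44% of all probes did. The same linear model without limma's moderation also called 0 on each of these days, and 3, 5 and 1 of the 9 had an unadjusted p below 0.05. In sign, 8 of the 9 differences on day 7, 7 on day 30 and 8 on day 90 were negative, with medians of -0.94, -0.48 and -1.11 against -0.16, 0.11 and -0.27 over all probes. On day 180, 8 of the 9 were positive, with a median of 0.62 against 0.06 over all probes. The directions at 7 and 30 days were those of each of the 3 other scalings tried. On day 90 Cxcl14 turned from 0.59 to -0.37 under quantile normalization, and on day 180 Cxcl11 turned from 0.10 to -0.11 under normexp correction and to -0.02 under quantile normalization, and Cxcl12 from 0.04 to -0.02 when the percentile was taken over detected probes. The 8 negative differences of day 90 were all smaller in size under normexp correction. It gave -0.28 in place of -1.37 for Cxcl6 and -0.51 in place of -1.85 for Cxcl11. The median of -1.11 on that day therefore depends on the background correction.

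**Figure D1:**
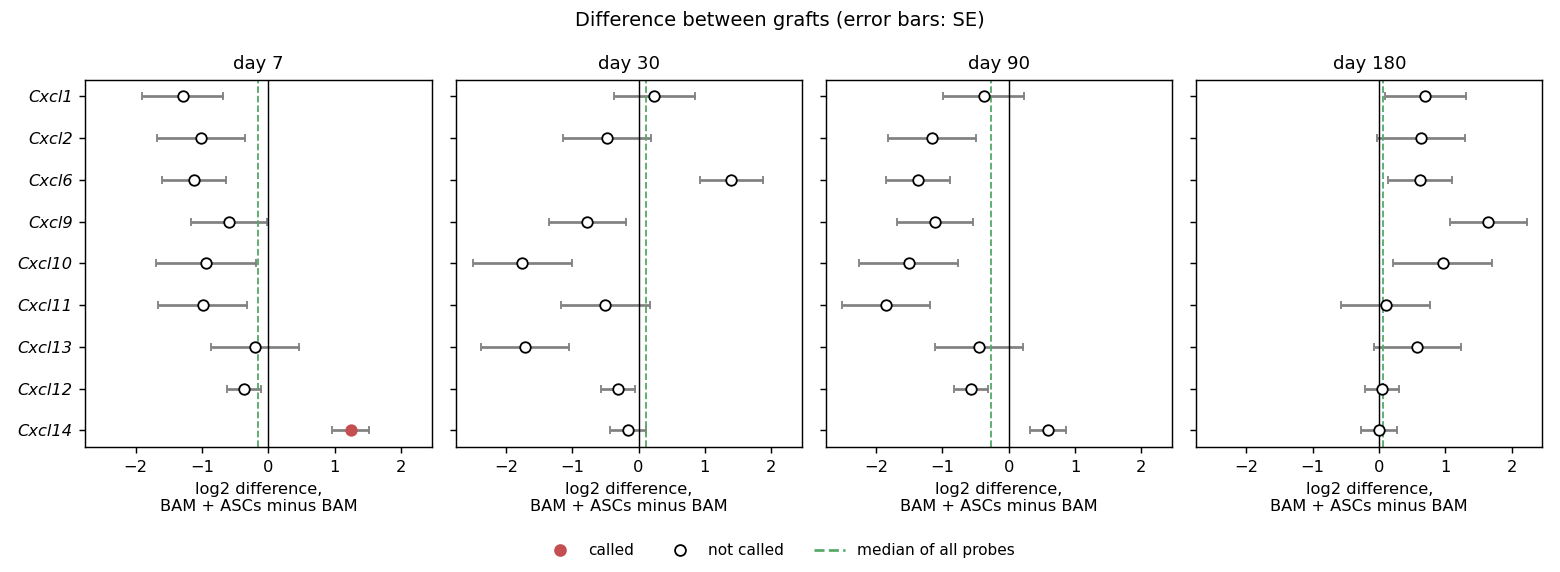
Log2 difference in level between grafts (x axis, BAM seeded with ASCs minus BAM only) for the 9 CXC chemokines at 7, 30, 90 and 180 days, with bars of 1 SE from the limma fit on 64 arrays, filled points for called genes and a dashed line at the median of all probes. Only Cxcl14 on day 7 is filled, at 1.24, and most other points lie left of zero at 7, 30 and 90 days and right of it on day 180.

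The second question was how the chemokines changed as the graft healed. In bladders reconstructed using BAM only, 5 of 9 were called between 7 and 30 days, against 8.65% of all probes. Cxcl1, Cxcl2 and Cxcl6 fell (4.21% of probes were called lower) and Cxcl13 and Cxcl14 rose (4.44% called higher). Between 30 and 90 days 3 of 9 were called, Cxcl1, Cxcl2 and Cxcl13, all lower, against 44.7% of all probes and 9.49% called lower. In bladders seeded with ASCs, 2 of 9 were called between 7 and 30 days, with Cxcl2 lower and Cxcl14 higher, against 8.06% of all probes, 6.67% called higher and 1.4% called lower. Between 30 and 90 days 4 of 9 were called in seeded bladders, with Cxcl1, Cxcl2 and Cxcl6 lower and Cxcl14 higher, against 28.1% of all probes, 10.3% called lower and 17.8% called higher. That interval crosses the change of scan date in both grafts. Between 90 and 180 days limma called 0 of 9 in either graft, against 9.39% of all probes with BAM only and 4.14% with ASCs, the unmoderated model also called 0, and 7 and 1 of the 9 had an unadjusted p below 0.05. With BAM only, leaving out 1 array at a time gave 2 to 4 calls from 30 to 90 days. Cxcl10 was added without replicate 2 or 8 of day 30 or replicate 4 or 6 of day 90, and Cxcl1 was lost without any other array but replicates 2 and 7 of day 90. From 90 to 180 days 1 call arose, of Cxcl9 without replicate 1, 5 or 8 of day 90 or replicate 4 or 6 of day 180, and of Cxcl2 without replicate 5 of day 180. When each pair of groups was fitted without the other arrays, the 2 calls in seeded bladders from 7 to 30 days and the call of Cxcl14 between grafts on day 7 were lost.

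**Figure D2:**
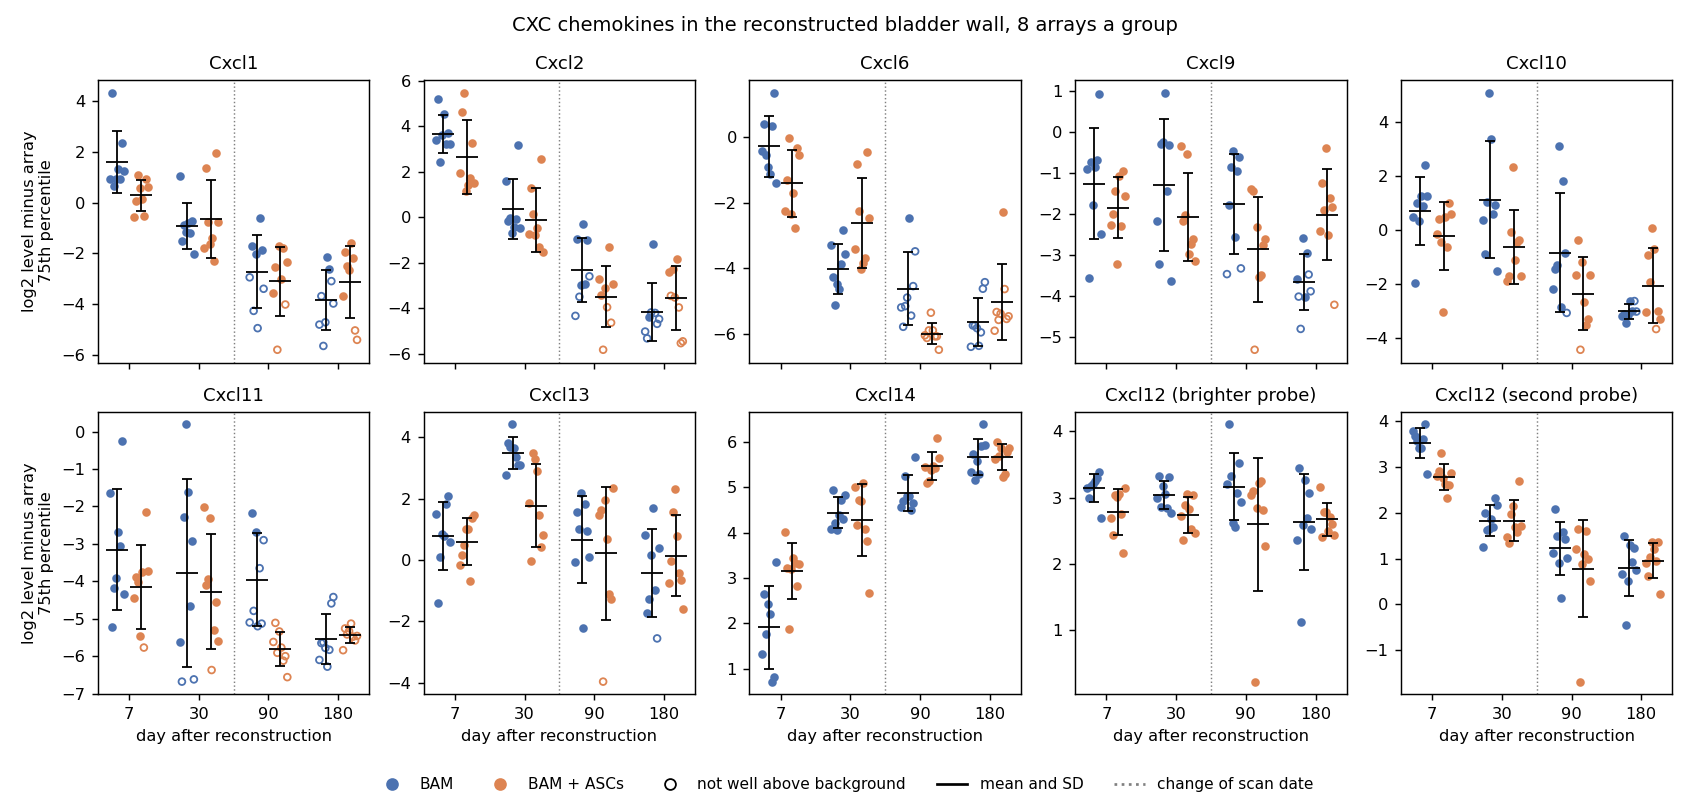
Log2 level (y axis, relative to the array's 75th percentile) of each CXC chemokine probe by day and graft, with 8 arrays per group as points, open where the probe was not well above background, and bars of mean and SD. Cxcl1, Cxcl2 and Cxcl6 lie highest on day 7, Cxcl14 climbs, Cxcl13 peaks on day 30 in bladders with BAM only, and the dotted line marks the change of scan date.

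Cxcl1 was highest on day 7. With BAM only, its lowest, median and highest log2 levels over 8 arrays were 0.66, 1.09 and 4.33 on day 7, -2.03, -1.02 and 1.06 on day 30, -4.94, -2.48 and -0.60 on day 90 and -5.64, -3.82 and -2.15 on day 180. In seeded bladders they were -0.56, 0.38 and 1.07 on day 7, -2.30, -1.09 and 1.97 on day 30, -5.79, -2.77 and -1.70 on day 90 and -5.40, -2.59 and -1.60 on day 180. Only 1 array of the BAM group on day 30 reached the levels of 7 days, whereas at 90 and 180 days some arrays of every group were not well above background. From 7 to 30 days with BAM only Cxcl1 fell by 2.49 (SE 0.613, adjusted p = 0.00176, limma), 5.63-fold, and 7 of 8 arrays lay below every array of 7 days. From 30 to 90 days it fell by 1.81 (adjusted p = 0.00864), a call that 10 of the 16 fits without 1 array lost, and in seeded bladders it fell by 2.43 (adjusted p = 0.000867). Between grafts on day 7, 6 of 8 seeded arrays lay below every array with BAM only, but the difference of -1.29 (SE 0.613) missed the threshold, with an adjusted p of 0.146 from limma.

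Cxcl2, a close relative of Cxcl1 made by activated macrophages and neutrophils, followed the same order of days. With BAM only its lowest, median and highest levels were 2.43, 3.50 and 5.19 on day 7, -0.68, -0.10 and 3.18 on day 30, -4.33, -2.77 and -0.31 on day 90 and -5.32, -4.42 and -1.16 on day 180. The seeded arrays gave 1.15, 1.86 and 5.49 on day 7, -1.54, -0.61 and 2.58 on day 30, -5.82, -3.25 and -1.32 on day 90 and -5.53, -3.48 and -1.85 on day 180. The medians descended through all 4 days in both grafts, and the arrays of 90 and 180 days overlapped in each graft. Cxcl2 fell from 7 to 30 days in both grafts, by 3.30 (SE 0.662, adjusted p = 0.000134, limma) or 9.83-fold with BAM only and by 2.76 (adjusted p = 0.00159) or 6.76-fold with ASCs. From 30 to 90 days it fell by 2.70 (adjusted p = 0.000363) and 3.38 (adjusted p = 2.96e-05). Between grafts the Cxcl2 differences of -1.02, -0.48, -1.16 and 0.63 at 7, 30, 90 and 180 days had adjusted p-values of 0.322, 0.687, 0.153 and 0.845.

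Cxcl6, the rodent chemokine also known as LIX, fell furthest in the first interval with BAM only. Its lowest, median and highest levels there were -1.39, -0.47 and 1.36 on day 7, -5.12, -4.07 and -2.84 on day 30, -5.78, -5.02 and -2.46 on day 90 and -6.39, -5.78 and -4.42 on day 180. For BAM with ASCs they were -2.76, -1.5 and -0.01 on day 7, -4.02, -2.93 and -0.45 on day 30, -6.48, -6.06 and -5.35 on day 90 and -5.90, -5.42 and -2.28 on day 180. The probe was well above background on all 8 arrays of each group at 7 and 30 days but on at most 1 array of each later group. From 7 to 30 days with BAM only Cxcl6 fell by 3.73 (SE 0.479, adjusted p = 2.29e-08, limma), 13.2-fold, with all 8 arrays below every array of 7 days. In seeded bladders the same interval gave -1.21 (adjusted p = 0.0502), and the fall came between 30 and 90 days, where levels became at least 9.38-fold lower (adjusted p = 5.92e-08). This is a bound, because Cxcl6 was not well above background on any seeded array of 90 days.

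Between grafts Cxcl6 changed sign with the day. On day 30 it was higher by 1.40 (SE 0.479) in seeded bladders, where 4 of 8 arrays lay above every array with BAM only, with an adjusted p of 0.056. On day 90 the difference was -1.37 with an adjusted p of 0.0238, but the probe was well above background on 1 array with BAM only and on no seeded array, and normexp correction gave -0.28 with an adjusted p of 0.693. Neither day's difference was called. The test of the change itself, the graft difference on day 90 minus that on day 30, gave -2.77 (SE 0.678, adjusted p = 0.00235, limma), and Cxcl6 was the only member called among 6 pairs of days, for this pair against 9.99% of all probes and 6.67% called lower. It was also called with the percentile over detected probes but not under normexp correction or quantile normalization, and the 90-day side rests on 1 array of 16 that was well above background. For the other pairs, 0.985% of probes were called from 7 to 30 days, 5.83% from 7 to 90, 8.48% from 7 to 180, 2.51% from 30 to 180 and 9.79% from 90 to 180 days, and the member differences nearest the threshold were those of Cxcl9 (2.76 from 90 to 180 days, adjusted p = 0.0111), Cxcl14 (-1.24 from 7 to 180 days, adjusted p = 0.0196, with most day 180 arrays saturated for it) and Cxcl6 (2.52 from 7 to 30 days, adjusted p = 0.0207).

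Cxcl1, Cxcl2 and Cxcl6 lie close together on rat chromosome 14, with Cxcl2 and Cxcl1 as neighbours and Cxcl3, Pf4 and Ppbp lying between Cxcl1 and Cxcl6 in the RefSeq gene order. The 250 bases before each annotated start were searched on both strands for a kappaB-type motif, GGG and TTTCC with any 2 bases between, the kind of site NF-kB binds. All 3 promoters held it, as did 1.3% of the 33469 rat promoters searched. None of the other members with a promoter in the table held these exact letters. Other forms of such a site were not searched, so this does not show that those members lack one. The sequences are from RefSeq (GRCr8, chr14:17479322-17479571, chr14:17467256-17467505 and chr14:17596418-17596667, each the minus strand of the assembly) and run 5′ to 3′ towards the start, with the motif matches in capitals. The first match in Cxcl1 is on the opposite strand.
Cxcl1: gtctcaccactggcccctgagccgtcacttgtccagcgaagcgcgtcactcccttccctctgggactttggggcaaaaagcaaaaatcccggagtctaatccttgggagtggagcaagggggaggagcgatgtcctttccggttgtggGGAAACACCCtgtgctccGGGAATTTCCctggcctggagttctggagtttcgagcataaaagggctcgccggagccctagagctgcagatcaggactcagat
Cxcl2: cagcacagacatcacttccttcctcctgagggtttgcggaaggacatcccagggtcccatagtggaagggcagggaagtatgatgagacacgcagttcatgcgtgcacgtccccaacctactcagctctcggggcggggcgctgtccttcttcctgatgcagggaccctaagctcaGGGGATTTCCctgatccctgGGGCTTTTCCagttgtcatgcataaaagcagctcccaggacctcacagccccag
Cxcl6: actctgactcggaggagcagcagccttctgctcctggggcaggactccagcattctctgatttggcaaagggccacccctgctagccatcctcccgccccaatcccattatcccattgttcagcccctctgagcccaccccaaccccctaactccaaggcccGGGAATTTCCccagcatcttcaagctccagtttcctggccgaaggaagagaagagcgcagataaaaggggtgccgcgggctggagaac
The matches began at -102 and -84 in Cxcl1, at -74 and -54 in Cxcl2 and at -88 in Cxcl6, counted from the base before the start as -1, and none overlapped another motif searched. A match describes letters only and shows no binding.

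**Figure D3:**
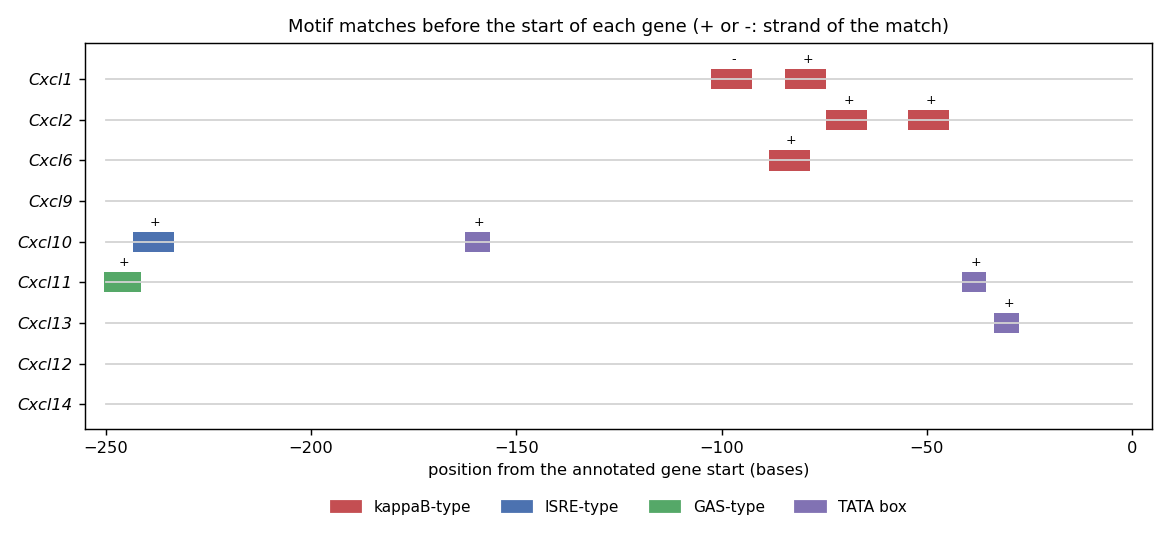
Position (x axis, bases from the annotated start) of each motif match in the 250 bases before the 9 CXC chemokine genes with a RefSeq promoter. Matches to the kappaB-type motif stand in Cxcl1, Cxcl2 and Cxcl6, between -102 and -45, and the single ISRE-type match stands in Cxcl10 at -243.

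The Cxcr2 receptor, which neutrophils carry, fell from 7 to 30 days in both grafts. With BAM only its lowest, median and highest levels were -1.60, -0.21 and 1.16 on day 7 and -5.01, -4.62 and -2.56 on day 30, and it fell by 4.14 (adjusted p = 2.44e-10, limma). Seeded bladders had -2.92, -2.09 and -0.19 on day 7 and -5.08, -3.94 and -0.97 on day 30, a fall by 1.71 (adjusted p = 0.00367). Between grafts on day 7 Cxcr2 differed by -1.54 (adjusted p = 0.0105, limma), just short of the threshold. From 30 to 90 days with BAM only, where Cxcl1 and Cxcl2 fell, it changed by 0.08 (adjusted p = 0.888). On day 90, 2 of 8 of those arrays were well above background. From 30 to 90 days with ASCs Cxcr2 became at least 4.29-fold lower (adjusted p = 9.06e-05), and no seeded array of 90 or 180 days was well above background. Cxcr1, the other receptor of this group, was well above background on at most 2 arrays of any group. Of the 4 other CXC ligands listed, the platelet chemokine Ppbp was called higher with ASCs on day 30 (adjusted p = 0.00169), with levels of -6.02, -5.38 and -2.59 against -6.56, -6.49 and -6.34. It was well above background on 7 of 8 seeded arrays and on 1 of 8 with BAM only, so the latter levels lie at the floor.

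Neutrophil markers and NF-kB targets fell with these 3 chemokines in the first interval with BAM only, but not in every comparison. From 7 to 30 days with BAM only 7 of the 9 neutrophil genes named were called lower and 0 higher, against 4.21% of all probes called lower, with a median difference of -3.25, led by the calprotectin genes S100a8 and S100a9, which fell by 5.62 and 5.52. The mean level over the neutrophil list ran from -2.49 to -0.25 on the arrays of 7 days and from -4.87 to -3.21 on those of 30 days. In seeded bladders 4 of 9 were called lower over the same interval, against 1.4% of all probes, and the list ran from -2.98 to -1.61 on day 7 and from -4.38 to -2.42 on day 30. Between grafts on day 7 the neutrophil genes Csf3r and Camp were lower with ASCs, by 1.82 and 0.85 in size, 2 of 9 with 0 higher, against 5.62% of all probes called lower. On day 30 the sign turned, with 7 of 9 neutrophil genes positive with ASCs, a median of 0.60 and 0 called by limma (2 at an unadjusted p below 0.05). From 30 to 90 days with BAM only, where Cxcl1 and Cxcl2 fell, 0 of 9 were called lower and 3 higher (Mmp8, Elane and Ngp), against 35.2% of all probes called higher, and none of these 3 was well above background on more than 1 array of either day. Of 12 genes named in the list of IL-1, TNF, IL-17 and NF-kB responses, 8 were called lower from 7 to 30 days with BAM only and 7 from 30 to 90 days with ASCs (10.3% of all probes), and on day 7 Lcn2 and Il6 were lower with ASCs, with differences of -4.45 (adjusted p = 1.81e-05) and -2.20 (adjusted p = 0.00103). The part of neutrophil number in the levels of Cxcl1, Cxcl2 and Cxcl6 was not tested.

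The interferon-induced members showed wide spread within groups and no call. Cxcl9 with BAM only had lowest, median and highest levels of -3.56, -0.88 and 0.93 on day 7, -3.65, -0.87 and 0.97 on day 30, -3.47, -1.36 and -0.47 on day 90 and -4.81, -3.74 and -2.59 on day 180. Under seeding they were -3.22, -1.77 and -0.94, then -3.15, -2.38 and -0.33, then -5.32, -2.69 and -1.39, and on day 180 -4.22, -1.87 and -0.39. On day 180, 7 of 8 seeded arrays lay above every array with BAM only. Cxcl9 differed there by 1.65 (SE 0.577), 3.15-fold, with an unadjusted p of 0.00579 and an adjusted p of 0.092 from limma. It was well above background on 7 of 8 seeded arrays but on 4 of 8 with BAM only. Normexp correction gave a difference of 1.1 (adjusted p = 0.159, limma). From 90 to 180 days with BAM only Cxcl9 changed by -1.92 (adjusted p = 0.0101, limma), just short of the threshold. There 6 of 8 arrays lay below every array of 90 days. Cxcl9 was well above background on 6 of 8 of these arrays on day 90 and on 4 of 8 on day 180. The background differed between these days, so no fold is given.

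Cxcl10, the interferon-inducible protein known as IP-10, had lowest, median and highest levels with BAM only of -1.96, 0.95 and 2.43 on day 7, -1.54, 0.77 and 5.11 on day 30, -3.08, -1.37 and 3.11 on day 90 and -3.45, -3.07 and -2.64 on day 180. With ASCs these were -3.05, 0.14 and 1.00, then -1.90, -0.79 and 2.33, then -4.45, -2.18 and -0.37, and on day 180 -3.68, -2.48 and 0.08. The SD reached 2.17 and 2.21 with BAM only at 30 and 90 days, then 0.273 on day 180. The graft differences of -0.94, -1.75, -1.51 and 0.96 had adjusted p-values of 0.442, 0.129, 0.102 and 0.704. When the 8 group means of a probe were put in order, none of the 7 steps of Cxcl9, of Cxcl10 or of Cxcl11 was larger than the larger SD of its 2 groups, against 2 steps for Cxcl1, Cxcl2 and Cxcl6, 1 for Cxcl13 and 4 for Cxcl14. The brighter Cxcl12 probe also had 0 such steps, and its second probe had 3. The ranges of neighbours in these orders overlapped at every step.

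Cxcl11 was near background from 90 days onwards. Its levels with BAM only were -5.23, -3.48 and -0.24 on day 7, -6.68, -3.80 and 0.19 on day 30 and -5.20, -4.22 and -2.18 on day 90, where 2 of 8 arrays were well above background. In seeded bladders they were -5.77, -3.95 and -2.14 on day 7, -6.37, -4.33 and -2.01 on day 30 and -6.56, -5.84 and -5.11 on day 90, where no array was. The difference between grafts on day 90, with both groups mostly near background, was -1.85 (adjusted p = 0.0282), not called, and was -0.51 (adjusted p = 0.512) under normexp correction. On day 180 it was not well above background on any array of either graft.

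The interferon list stood beside these members without calls between grafts. Of its 15 genes limma called 0 on any of the 4 days, with 2, 6, 3 and 0 at an unadjusted p below 0.05. In sign 12 of 15 were lower with ASCs on day 7, 14 on day 30 and 14 on day 90. Their medians of -0.40, -0.73 and -0.44 stood against -0.16, 0.11 and -0.27 over all probes. On day 180, 13 of 15 were higher, with a median of 0.18 against 0.06 over all probes. T and NK cell genes ran the same way, with 10 of 10 lower on day 30 and 9 of 10 higher on day 180, and 1 of 10 called on a single day, Cd4, lower by 1.01 in size on day 90 (adjusted p = 0.00652), against 8.6% of all probes called lower. Cxcr3, the receptor of this group, had levels of -3.14, -1.74 and -0.49 with BAM only on day 30 and was called lower from 90 to 180 days (adjusted p = 0.00704). With BAM only 3 of 8 arrays of day 90 and none of day 180 held it well above background, and the background differed between these days, so no fold is given. What T and NK cells contributed to Cxcl9, Cxcl10 and Cxcl11 was not tested.

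Cxcl11, Cxcl10 and Cxcl9 follow each other directly on chromosome 14. An ISRE-type motif, GAAA and GAAA with any 2 bases between, the kind bound by interferon-activated factors, was found in the 250 bases before Cxcl10 alone among the members, against 3.41% of all promoters. The Cxcl10 sequence (RefSeq, GRCr8, chr14:15988816-15989065, plus strand) is shown because this gene tracked interferon-stimulated genes most closely, with the motif in capitals.
Cxcl10: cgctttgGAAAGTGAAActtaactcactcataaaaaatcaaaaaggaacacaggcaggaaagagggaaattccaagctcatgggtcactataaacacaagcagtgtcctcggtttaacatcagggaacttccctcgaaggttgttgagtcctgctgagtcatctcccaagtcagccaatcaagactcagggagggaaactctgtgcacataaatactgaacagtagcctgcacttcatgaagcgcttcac
A GAS-type motif, TTCNNNGAA, was found before Cxcl11 only, against 7.67% of all promoters. The letters of a TATA box, TATAAA, were found before 12.9% of all promoters. Among the members they began at -162 in Cxcl10, at -41 in Cxcl11 and at -33 in Cxcl13. That no match was found before Cxcl9 says only that these letters are not in its window.

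Cxcl13 had a peak on day 30 with BAM only. There its lowest, median and highest levels were 2.77, 3.51 and 4.42, against -1.42, 0.81 and 2.08 on day 7, -2.23, 0.97 and 2.20 on day 90 and -2.56, -0.41 and 1.70 on day 180, so the arrays of 30 days overlapped with none of the other BAM groups. Cxcl13 rose by 2.70 from 7 to 30 days (SE 0.659, adjusted p = 0.0016, limma), 6.51-fold, and fell by 2.82 from 30 to 90 days (adjusted p = 0.000187), 7.08-fold. In seeded bladders the levels were -0.68, 0.75 and 1.48 on day 7, -0.05, 1.66 and 3.49 on day 30, -3.97, 1.08 and 2.35 on day 90 and -1.60, -0.25 and 2.33 on day 180. The seeded changes of 1.19 (adjusted p = 0.158) and -1.56 (adjusted p = 0.0432) were not called. On day 30, 5 of 8 seeded arrays lay below every array with BAM only, yet the difference of -1.71 (SE 0.659) had an adjusted p of 0.0908.

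Cxcr5, the receptor of Cxcl13 on B cells and follicular helper T cells, passed the threshold between grafts on day 7 (adjusted p = 0.00906, limma), but it was well above background on 2 arrays with BAM only and on no seeded array, so no fold is given. Of the 9 genes named for B cells and lymphoid follicles, limma called 0 from 7 to 30 days in either graft, with 2 and 1 at an unadjusted p below 0.05. From 30 to 90 days with BAM only, where Cxcl13 fell, 2 were called higher and 0 lower, against 35.2% of all probes called higher. From 90 to 180 days with BAM only 3 were called lower, against 4.17% of all probes, among them Cd79b, a part of the B cell receptor complex, with a difference of -2.40 (adjusted p = 0.0014, limma). The part of B cells in the level of Cxcl13 was not tested.

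Cxcl12 gave different answers by probe. The brighter probe, assigned to one RefSeq transcript, had group medians from 2.64 to 3.19, the lowest array at 0.23 and the highest at 4.10, and was called in no comparison of graft or day. The second probe, assigned to another transcript, had levels with BAM only of 2.85, 3.59 and 3.93 on day 7, 1.26, 1.79 and 2.32 on day 30, 0.14, 1.28 and 2.09 on day 90 and -0.45, 0.84 and 1.5 on day 180. The seeded arrays gave 2.33, 2.78 and 3.30 on day 7, 1.33, 1.71 and 2.70 on day 30, -1.69, 1.03 and 1.65 on day 90 and 0.23, 0.98 and 1.36 on day 180. This probe fell by 1.71 from 7 to 30 days with BAM only (SE 0.275, adjusted p = 3.17e-06, limma), with all 8 arrays below every array of 7 days, and by 0.95 with ASCs (adjusted p = 0.00878), where the brighter probe changed by -0.10 and -0.05. It fell again by 1.05 from 30 to 90 days with ASCs (adjusted p = 0.0013). Between grafts on day 7 it was lower by 0.75 in size with ASCs, with 5 of 8 arrays below every array with BAM only and an adjusted p of 0.047.

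The Cxcl12 receptors were called in opposite directions, Cxcr4 lower from 30 to 90 days and Ackr3 higher from 7 to 30 days. The Cxcr4 interval crosses the change of scan date. From 7 to 30 days Cxcr4 changed by -0.31 with BAM only and -0.78 with ASCs (adjusted p = 0.679 and 0.114, limma), not called. From 30 to 90 days Ackr3 rose by 0.79 with BAM only (adjusted p = 0.00268), and its change of 0.28 with ASCs was not called (adjusted p = 0.318). Cxcr4, the signalling receptor, had levels with BAM only of -0.38, 0.01 and 0.26 on day 30 and -4.91, -1.64 and -0.31 on day 90, and fell by 1.94 (SE 0.387, adjusted p = 1.81e-05, limma). With ASCs it fell by 1.48 over the same interval (adjusted p = 0.00131), from -1.95, -0.72 and -0.44 to -4.48, -2.18 and -1.14. The scavenger Ackr3 rose from 7 to 30 days, from -2.99, -1.89 and -0.07 to -1.07, -0.62 and -0.35 with BAM only, by 1.23 (adjusted p = 4.81e-05), and by 0.97 with ASCs (adjusted p = 0.00154). It was well above background on all arrays.

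**Figure D4:**
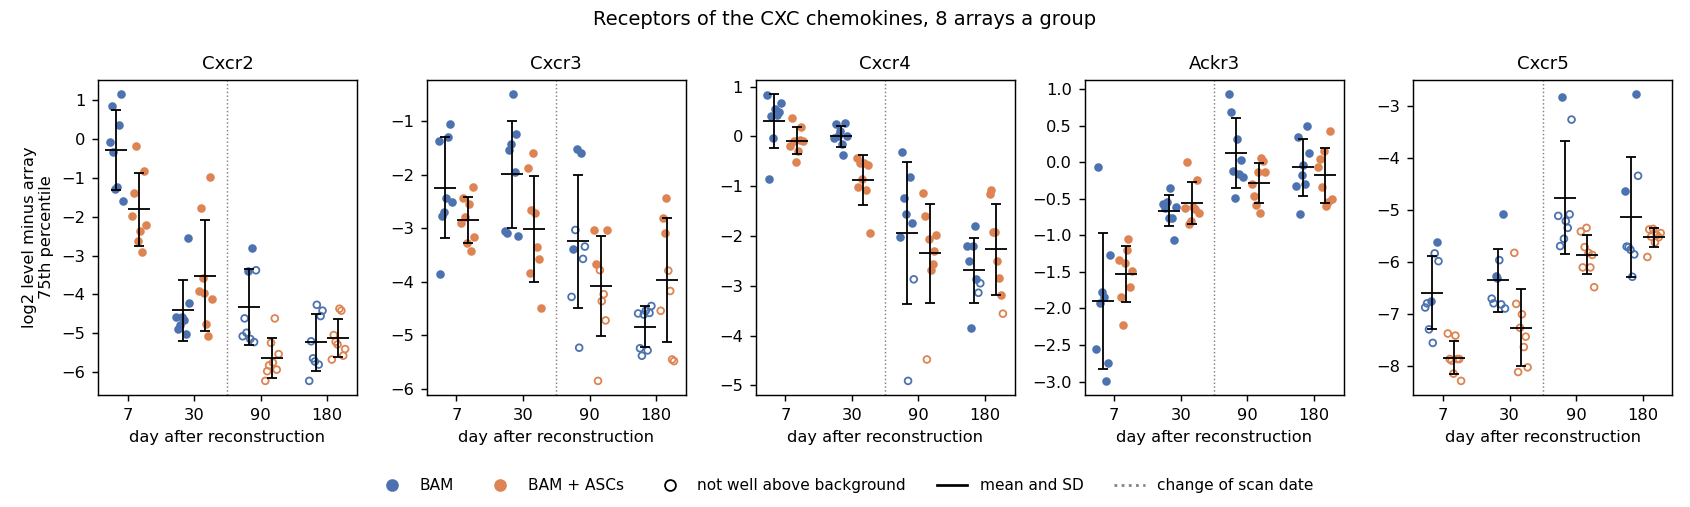
Log2 level (y axis, relative to the array's 75th percentile) of 5 CXC chemokine receptors by day and graft, with 8 arrays per group as points, open where not well above background, and bars of mean and SD. Cxcr2 drops from 7 to 30 days, Cxcr4 drops across the change of scan date (dotted line), Ackr3 climbs, and Cxcr5 is open on nearly all arrays.

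Cxcl14 was the member that differed between grafts and the member that climbed with healing. On day 7 its lowest, median and highest levels were 0.71, 1.99 and 3.36 with BAM only and 1.87, 3.26 and 4.01 with ASCs. The groups overlapped, and 2 of 8 seeded arrays lay above every array with BAM only. The means of 1.91 ± 0.925 and 3.15 ± 0.613 (SD, n = 8 each) differed by 1.24 (SE 0.276, adjusted p = 0.00074, limma), 2.37-fold. The call held with each array left out and under the 3 other scalings, but a fit on these 2 groups alone gave an adjusted p of 0.0288, and the adjusted p ran from 5.95e-05 to 0.0288 over all alternatives. Urothelial genes moved with it on day 7, with 4 of 6 named called higher with ASCs and 0 lower, against 2.11% of all probes called higher, among them Upk2 (2.87, adjusted p = 0.00022), Upk1a (2.36) and Upk3a (2.28), which encode the uroplakins of the luminal cell layer. Their list mean ran from -2.60 to 2.18 on the arrays with BAM only and from 0.71 to 2.86 on the seeded ones, while limma called 0 of 6 smooth muscle genes (2 at an unadjusted p below 0.05). Among other cell types on that day, 2 of 6 endothelial genes (Vwf and Kdr) were called lower with ASCs. So was 1 of 8 stromal genes (Pdgfrb), where 5.62% of all probes were called lower. All 6 and all 8 were negative in sign, with medians of -0.62 and -0.22 against -0.16 over all probes. Once group means were removed, the genes most like Cxcl14 among 11160 were Tnnt2 (r = 0.75) and the smooth muscle gene Myh11 (0.74). These r include the arrays of days 90 and 180, where Cxcl14 was saturated on 21 of 32, so its deviations there rest on lower limits. The part of the urothelium, smooth muscle, endothelium or stroma in the Cxcl14 level was not tested.

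After 7 days Cxcl14 rose in both grafts. With BAM only its levels were 4.06, 4.34 and 4.95 on day 30, 4.51, 4.75 and 5.68 on day 90 and 5.17, 5.67 and 6.39 on day 180, and with ASCs 2.67, 4.44 and 5.10, then 5.10, 5.44 and 6.09, and 5.22, 5.74 and 6.00. All arrays of 30 days with BAM only lay above every array of 7 days, a rise of 2.54 (SE 0.276, adjusted p = 2.71e-10, limma) or 5.80-fold. With ASCs it rose by 1.13 from 7 to 30 days (adjusted p = 0.00178) and by 1.18 from 30 to 90 days (adjusted p = 0.000353). A share of 0.5 or more of its spots was saturated on 7 of 8 arrays with BAM only and 1 with ASCs on day 90, and on 6 and 7 on day 180, and the level of a saturated spot is a lower limit. The graft differences at 30, 90 and 180 days were -0.16, 0.59 and 0.00, with adjusted p-values of 0.755, 0.0826 and 1.

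The members were then compared among themselves by their deviations from the group means, which removes group and slide. Of 36 pairs of genes over 64 arrays, 10 had an adjusted p below 0.05 by permutation within groups (100000 resamples, two-sided), and all 10 were positive, while r ran from -0.31 to 0.70 with a median of 0.10. Over all 64 arrays most of them fell into 2 blocks. Cxcl9 and Cxcl10 had r = 0.70 and rho = 0.66 (adjusted p = 7.2e-05 for both, from the smallest p the permutations can give, 1e-05), and r was 0.67 without the 2 arrays farthest from the median and 0.72 and 0.68 within the earlier and later scan dates. Cxcl9 and Cxcl11 had r = 0.65 (rho 0.63), which was 0.89 on the earlier arrays but 0.13 on the later, where Cxcl11 was near background. Cxcl10 and Cxcl11 had r = 0.59 (rho 0.54), with 0.75 and 0.35 within dates. Cxcl13 joined this block, with r of 0.59 to Cxcl10 (rho 0.62, 0.49 and 0.68 within dates) and 0.54 to Cxcl9 (rho 0.53, 0.47 and 0.63 within dates).

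The other block held the neutrophil chemokines. Cxcl1 and Cxcl2 had r = 0.56 (rho 0.56, adjusted p = 7.2e-05 for both by permutation), 0.50 without the 2 farthest arrays and 0.64 and 0.50 within dates. Cxcl2 and Cxcl6 had r = 0.43 (rho 0.37, adjusted p = 0.00345 and 0.0208), with 0.64 and 0.20 within dates. Cxcl1 and Cxcl6 had r = 0.32 (adjusted p = 0.0627), 0.70 on the earlier arrays and -0.04 on the later ones, where Cxcl6 was rarely above background. The blocks were less apart on the later arrays. There Cxcl1 had r of 0.58 to Cxcl10, 0.57 to Cxcl13, 0.54 to Cxcl12 and 0.47 to Cxcl9, against -0.14, -0.44, 0.0 and -0.12 on the earlier ones. On the later arrays Cxcl2 had r of only 0.23 and 0.13 to Cxcl9 and Cxcl10, and Cxcl6 had -0.19 and -0.12. The pairs Cxcl1 with Cxcl12 (r = 0.39), Cxcl9 with Cxcl12 (0.32) and Cxcl11 with Cxcl13 (0.29) also passed for r, but for rho only the last did, with adjusted p-values of 0.105, 0.121 and 0.0055. Cxcl14 had no pair that passed, and its r to the other members ran no lower than -0.31, to Cxcl6.

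**Figure D5:**
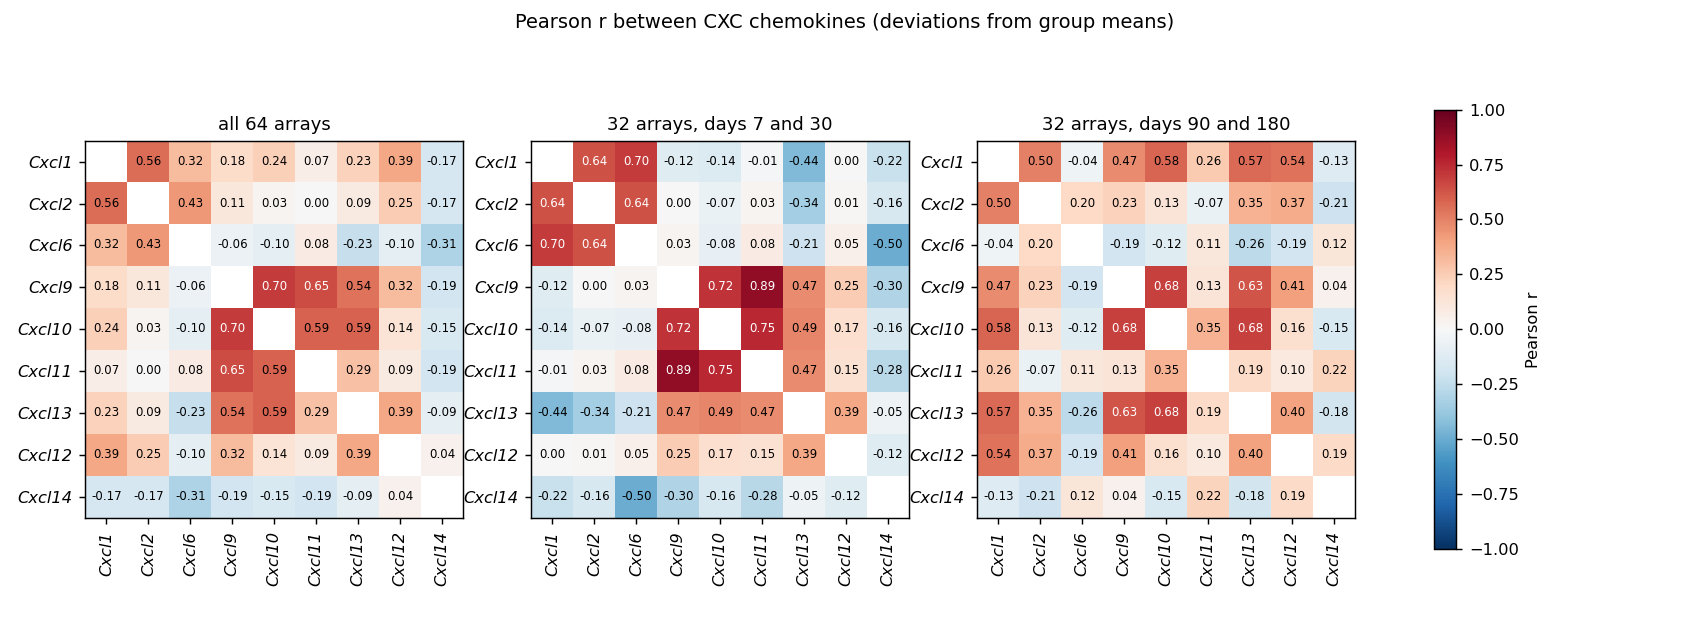
Pearson r between the levels of each pair of CXC chemokines after group means were removed, on a colour scale from -1 to 1, over all 64 arrays and over the 32 arrays of each scan date. Cxcl9, Cxcl10 and Cxcl11 form a warm block, as do Cxcl1, Cxcl2 and Cxcl6 at days 7 and 30. Both blocks fade at days 90 and 180, where Cxcl11 and Cxcl6 were rarely above background. Cxcl9 with Cxcl10 stays at 0.68 and Cxcl1 with Cxcl2 at 0.50. At those days Cxcl1 is also warm with Cxcl9, Cxcl10, Cxcl12 and Cxcl13.

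For each member the named genes with the most similar deviations were listed, out of 11160 genes well above background on at least 32 arrays. The r values are descriptions over 64 arrays that share labelling and background. Cxcl10 was followed most closely of all, by the interferon-stimulated genes Parp14 (0.92), Mx1 (0.91) and Irf7 (0.91). Cxcl9 was followed by Il2rb (0.82), the beta chain of the IL-2 receptor on T and NK cells, Trim30d (0.77) and Gimap7 (0.77), and Cxcl11 by the interferon-induced Gbp4 (0.76), Gzmc (0.75) and Ly49s5 (0.74). Cxcl1 was followed by the cytokine gene Il1a (0.76), S100a9 (0.75) and S100a8 (0.74), and Cxcl2 by Arrdc3 (0.65), S100a9 (0.59) and S100a8 (0.56). Cxcl6 was followed by Hspa14 (0.76), Mapk6 (0.68) and Kntc1 (0.67). Cxcl13 was followed by the leukocyte genes Traf3ip3 (0.83), Clec12a (0.82) and Spn (0.82). Cxcl12 was followed by the secreted matrix protein Spon1 (0.80), the complement protease C1s (0.79) and Cp (0.76), and Cxcl14 by Tnnt2 (0.75), Myh11 (0.74), the smooth muscle myosin, and Ahrr (0.73). The r of Cxcl14 are limited by its saturation on 21 of the 32 later arrays.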

How the data were processed

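Total RNA of 64 reconstructed bladder walls was labelled with Cy3 and hybridized to rat 8x60K arrays, and the deposited files hold scanner intensity values made by the authors with Agilent Feature Extraction (12.0.1.1), which subtracts background and gives a processed signal per spot. The authors' series table was used as an alternative only. It held the same intensity values for 61 arrays, values lower by about 3.3 on the log2 scale for 3 arrays (BAM with ASCs, 7 days, replicates 2 to 4), and no value for 26650 spots of BAM, 180 days, replicate 1. From the intensities, control spots (4259 of 62976) and outlier spots were left out, log2 of the processed signal minus the array's 75th percentile was averaged over spots of a probe, and 30367 probes were fitted in limma 3.58.1 (R 4.3.3) with 8 group means, all 64 arrays sharing one estimate of the spread. Probes were named through RefSeq accessions (18758 probes, 15715 genes), and the brightest probe stood for a gene. The array number limits the precision. The scanner software marks spots as well above background or saturated, and a probe took the mark of a share of 0.5 or more of its spots. A group below background on all its arrays was given a bound, from the higher of its own signal and the lowest signal well above background on each array, so the fold is at least that value. The named genes were all listed members, their receptors and other CXC ligands where called or binding a member, at most 3 called genes of each list and day with the largest difference, and 3 most similar genes per member. The members, gene lists, motifs and tests were chosen with earlier results of these data known. The labels call the arrays biological replicates. Fits were tested on simulated data. Correlations used Python 3.11.15 and scipy 1.17.1. Alternatives changed background correction, scaling, outlier spots, dim probes, arrays fitted, replicate block, test and threshold.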

Additional observations from a re-analysis of the deposited data

Results flagged for a closer look

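Of 80 combinations of probe and group, 10 held an array far from the other 7, where chance marks about 1 in 20. Cxcl1 stood high at 4.33 on BAM, 7 days, replicate 2 and at 1.06 on BAM, 30 days, replicate 1. Cxcl10 stood low at -1.96 on BAM, 7 days, replicate 2 and at -3.05 on BAM with ASCs, 7 days, replicate 4, and high at 2.33 on BAM with ASCs, 30 days, replicate 4. Both Cxcl12 probes stood low on BAM with ASCs, 90 days, replicate 3, at 0.23 and -1.69, and the brighter one also on BAM, 180 days, replicate 3, at 1.12. Cxcl2 stood high at -1.16 on BAM, 180 days, replicate 5, and Cxcl6 at -2.28 on BAM with ASCs, 180 days, replicate 5.

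The graft effect on Cxcl6 differed between days, by -2.77 from 30 to 90 days in the test of the difference itself. The day 90 side had 1 of 16 arrays well above background, and the call was lost under normexp correction and quantile normalization.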

How the results depend on the processing

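Each count of CXC chemokines called stayed within 1.5 times its value under dim-probe filtering, kept outlier spots, the authors' series table, the unmoderated ANOVA, a fold change over 2 and the mean of all probes. Called changes of the graft effect between days numbered 1 in the report, 0 under normexp correction, 2 under quantile normalization (Cxcl14, not Cxcl6) and 2 with the percentile over detected probes. With only the 2 groups compared, 0 were called between grafts at 7 days and 0 from 7 to 30 days with ASCs. With an unadjusted p, 1 was called between grafts at 30 days, 2 at 90 days and 1 at 180 days, and 4 from 90 to 180 days with BAM only. Single differences turned under other scalings for Cxcl11 at 180 days (-0.11 and -0.02), Cxcl14 at 90 days (-0.37) and Cxcl12 at 180 days (-0.02), and the r of Cxcl1 and Cxcl6 was -0.04 at 90 and 180 days; the cause was not tested. With 1 array left out, counts ran from 0 to 1 for BAM only from 90 to 180 days and from 2 to 4 from 30 to 90 days, and the other 8 counts of graft or day did not move. Graft differences that turned ran at 30 days from -0.13 to 0.53 for Cxcl1, from -0.28 to 0.07 for Cxcl14 and from -0.91 to 0.07 for Cxcl11, at 90 days from -0.69 to 0.01 for Cxcl1 and from -0.86 to 0.15 for Cxcl13, and at 180 days from -0.17 to 0.16 for Cxcl12 and from -0.01 to 0.26 for Cxcl11, all uncalled. Both at 90 days turned without BAM with ASCs, replicate 3.

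Replicate numbers did not pair the arrays, since the correlation of same-numbered arrays ran from -0.28 to 0.33 over days, and at most 3 arrays a day correlated best with their own number. With the replicate block, 1 gene (Cxcl9) was called from 90 to 180 days with BAM only in place of 0, and no other count of graft or day left 1.5 times its value.

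On the 32 arrays of days 90 and 180, signals near background limit Cxcl1 (18 well above background), Cxcl2 (15), Cxcr3 (9), Cxcl6, Cxcl11 and Cxcr2 (2 each) and Ppbp (0), Cxcr5 was limited on all days, and saturation limits Cxcl14 (21 arrays).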
